A study of Mus musculus with 10 samples.

Results

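The comparison set splenic B cells that had been activated in culture without dividing, the group div0, against resting B cells, the group naive. It rests on 2 div0 and 2 naive libraries, 4 of the 10 libraries of the series, chosen by their labels, and it was read across 4427 genes, which are those of the 6610 gene symbols in the table with at least 1 TPM in at least 2 of the 10 libraries. All cells came from C57BL/6 mice, an inbred laboratory strain, and the labels name no genetic change. The div0 cells had been given a pulse of antibodies to IgM, the antigen receptor, and to CD40, a receptor that B cells use to take help from T cells, and were the cells found undivided at 48 h. The naive cells had no activation. Divided cells of the same 48 h cultures, the group div12, served as the nearest other group. Each library came from 1000000 cells of a pool of 4 to 5 mice, and the pools of a group were independent. How the naive cells were purified, and how undivided cells were told from divided ones at 48 h, is not given in the sources used here.

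A resting B cell circulates between blood and lymphoid tissue as a small cell with little cytoplasm, held in quiescence by transcription factors such as KLF2 and FOXO1. Antigen receptor and CD40 signals reach the nucleus mainly through the NF-kB, NFAT and AP-1 families and through MAP kinases and phosphoinositide 3-kinase. The cell then grows for a day or more before its first division, making ribosomes, mitochondria and membrane, changing its adhesion and chemokine receptors, and secreting attractants for T cells. The comparison asks how much of the resting pattern had changed in cells that had done this without dividing.

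Marker genes of B cells were abundant in all 4 libraries, and the naive libraries also held markers of other cells. Values are TPM, which divide 1000000 among the transcripts of a library by abundance per length, so that they keep no record of sequencing depth, which is unknown. The 11 tested B cell markers summed to 24462 and 23314 TPM in div0 cells and 27576 and 29018 TPM in naive cells. The 18 myeloid markers summed to 454 and 539 TPM in div0 cells, against 1656 and 4193 TPM in naive cells. The complement genes C1qa and C1qb of macrophages were at 0 and at most 0.309 TPM in div0 cells and reached 249 and 239 TPM in naive replicate 2. The erythroid list of 10 genes summed to 40.4 and 39.96 TPM in div0 cells, against 2817 and 3471 TPM in naive cells, with the red cell globin Hba-a1 at 0 and 0.392 TPM in div0 cells and 1962 and 2269.7 TPM in naive cells. T cell markers (12 genes, 285 and 299 TPM in div0 cells, against 1067 and 948 TPM in naive cells), NK cell markers (7 genes, 9.26 and 10.7 TPM in div0 cells, against 127 and 178 TPM in naive cells) and plasma cell markers (7 genes, 834 and 827 TPM in div0 cells, against 2384 and 1358 TPM in naive cells) were lower in div0 cells as well. Among the T cell markers Cd3e was near 0 in div0 cells, at 0.328 and 0.111 TPM. The T cell list as a whole was not near 0, and 3 of its 12 tested members were not called by the rule given below.

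The naive libraries stood apart from each other as well. Between the div0 libraries 39 genes differed by more than 2-fold, against 340 between the naive libraries. Naive replicate 2 held more of the myeloid list, and naive replicate 1 more of the 19 immediate early genes, which respond within minutes to many signals and summed to 2001 and 1569 TPM in div0 cells, against 14909 and 9656 TPM in naive cells. Of the 645 genes that fell by at least 2-fold, 144 were over 2-fold higher in naive replicate 2 than in replicate 1, and 63 the reverse. In bulk RNA, fewer cells of a type and less RNA per cell cannot be told apart. Leaving out the 72 genes of the other-cell and immediate early lists and rescaling the rest ended 26 of the 2431 calls described next, among the genes that stayed in. That step takes out the listed genes only, and not RNA that other cells add to the remaining genes. The part of other cells and of these early genes in the falls was not tested.

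**Figure D1:**
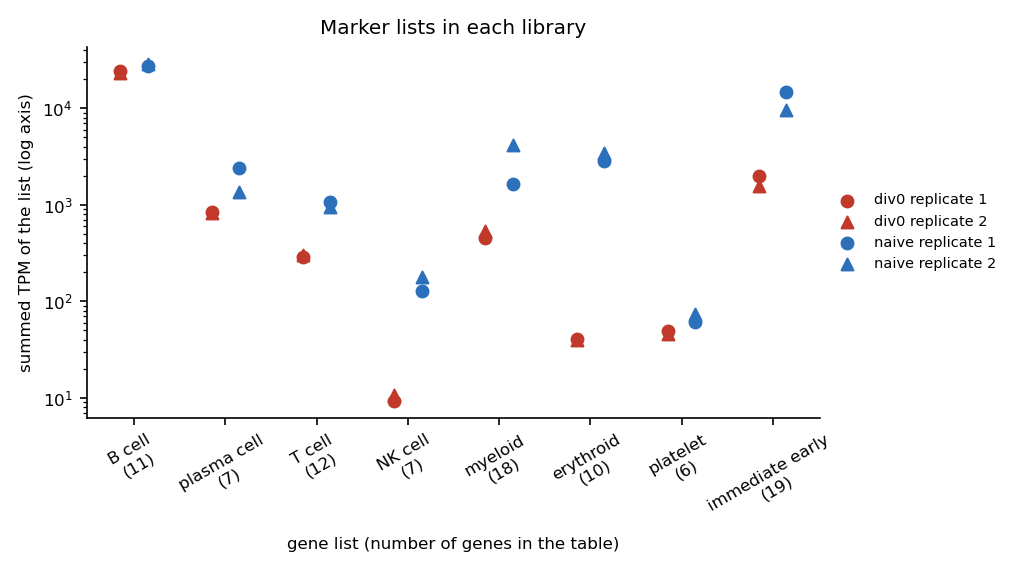
Summed TPM (log axis) of marker lists of several cell types and of immediate early genes in the div0 and naive libraries, 1 point per library, with the number of genes in each list in brackets. B cell markers lie close together in all 4 libraries, while myeloid, erythroid, NK and immediate early sums lie higher in both naive libraries.

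More than 1 in every 2 tested genes differed in level between div0 and naive cells. The words rose and fell are kept for genes with an adjusted p under 0.05 in limma's two-sided test, with Benjamini-Hochberg adjustment over the 4427 genes. By that rule 2431 genes (54.9%) were called, 680 higher (15.4%) and 1751 lower (39.6%) in div0 cells, and 1996 were not called. Changes of at least 2-fold were called for 211 genes that rose (4.77%) and 645 that fell (14.6%). At 4-fold or more there were 73 that rose and 246 that fell, and at 8-fold or more 16 and 114. Log2 changes are those of log2(TPM + 1), div0 minus naive, with their standard error, and they understate the change of low genes. There were 2 biological replicates in each group, and the fit takes its spread from all 10 libraries. Where library values of a gene are given, both div0 libraries lay on the same side of both naive libraries unless the text says otherwise.

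The balance of rises and falls rested on the scaling. The median log2 change over the tested genes was -0.24 with TPM as deposited, -0.03 after median-ratio scaling and 0.07 after quantile normalization. Median-ratio scaling gave 1130 genes called higher and 1165 called lower, and quantile normalization gave 1272 called higher and 1020 called lower. A gene at a log2 change of 0 therefore stood 0.24 above the median gene, and medians of gene lists are given below both as they are and relative to that median. Without div0 replicate 2 the calls numbered 429 higher and 1144 lower. With TPM as deposited falls outnumbered rises over all genes, so the counts of a list are to be read against the 15.4% that rose and the 39.6% that fell, and no list was tested against the rest. Beside the count of a list, the value farthest from it among the scalings and among the fits without 1 library stands in brackets where it differs by over 1.5 times and by at least 2 genes.

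**Figure D2:**
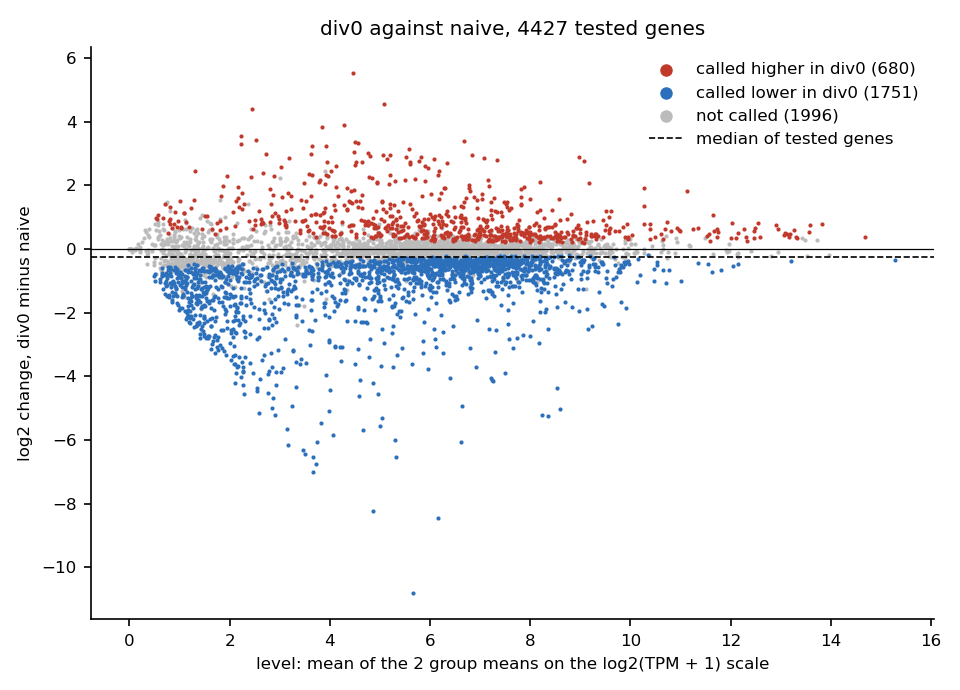
Log2 change of each tested gene, div0 minus naive (y axis), against its level, the mean of the group means on the log2(TPM + 1) scale (x axis). The 680 genes called higher are drawn in red, the 1751 called lower in blue and the 1996 not called in grey, and the dashed line marks the median change of -0.24.

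The share of the listed TPM that moved was larger than the replicate spread. The deposited values cover 6320 of 21896 annotated protein-coding genes, and each library sums to 1000000 TPM over the listed transcripts. The shares here and below are therefore those of the listed genes and not of the whole transcriptome. To turn the naive profile into the div0 profile, 17.0% of the TPM would have to be reassigned between genes (15.7% to 18.95% over the pairs of libraries). The same measure was 2.76% between the div0 libraries and 7.09% between the naive libraries. Between div0 and div12 cells, which differ by division, it was 8.68%, and between div12 and naive cells 23.5%. The genes called higher held 44.8% of the TPM in div0 cells and 29.7% in naive cells, and those called lower 20.4% in div0 cells and 34.9% in naive cells. No test was run on these shares, which use the same values as the calls.

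Within the listed genes, the TPM of div0 cells was concentrated in fewer genes. In div0 cells 68 and 70 genes held 50% of the TPM, against 111 and 117 genes in naive cells. At 1 TPM or more the div0 libraries listed 3937 and 3971 genes and the naive libraries 4281 and 4376. Calls ran by abundance: with the tested genes ranked by level into 5 equal bins, 28.9% rose and 30.9% fell in the most abundant bin, and 3.84% rose and 46.8% fell in the least abundant bin. The identity of the most abundant genes shifted less, with 8 of the first 10, 84 of the first 100 and 391 of the first 500 shared between the groups. Few of the listed genes were switched on outright. Only Ccl1 and Cx3cl1 were at 1 TPM or more in both div0 libraries and listed at 0 in both naive libraries. Cx3cl1, a chemokine with a membrane stalk, had 1.399 and 1.94 TPM in div0 cells and was called, and Ccl1, a T cell attractant, had 2.25 and 1.38 TPM in div0 cells and was not called. In the other direction 26 genes were listed at 0 in both div0 libraries and at 1 TPM or more in both naive ones, and 24 of these were higher in naive replicate 2 than in replicate 1.

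The cell-cycle list rose in a larger share than all tested genes. Of its 120 tested members 78 rose and 16 fell (10 with quantile normalization), with a median of 0.90. These shares were 65% and 13.3%, beside 15.4% and 39.6% of all tested genes. The list contributed 78 of the 680 rises and 54 of the 211 rises of at least 2-fold, which leaves 602 and 157 outside it. With 120 tested members it could hold at most 120 of the 680 rises. The number outside it therefore follows in large part from the size of the list. In terms of TPM the largest gains were in the translation apparatus. The gain per gene was led by Rps19, a protein of the small ribosomal subunit, with 19079.6 and 19096 TPM in div0 cells, against 10648 and 11581 TPM in naive cells. Eef1a1, the elongation factor that brings charged tRNA to the ribosome, followed with 29298 and 30262 TPM in div0 cells, against 23102 and 22816 TPM in naive cells. Tuba1b, an alpha tubulin, stood at 3840 and 4631 TPM in div0 cells, against 1192 and 1187 TPM in naive cells. The largest loss of TPM was in Cd74, the invariant chain of antigen presentation and the most abundant gene of both groups, at 36253 and 34941 TPM in div0 cells, against 47705 and 42487 TPM in naive cells. Its log2 change was -0.34 ± 0.13, and its call ended under 11 of 15 alternatives, among them both scalings and the omission of any one of the 4 libraries. The call of Eef1a1 ended with quantile normalization and with no filter. Cxcr4, the receptor that keeps B cells near stromal CXCL12, lost nearly all of its TPM, with 56.9 and 77.02 TPM in div0 cells, against 2482 and 1923 TPM in naive cells. Tsc22d3, a glucocorticoid-induced leucine zipper gene, fell likewise, with 50.02 and 46.8 TPM in div0 cells, against 1594 and 2124 TPM in naive cells.

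The steepest rises outside the cell-cycle, histone and immediate early lists were in genes of very different kinds, several of them for secreted proteins. Ccl22, a chemokine that attracts T cells through CCR4, had 121 and 178 TPM in div0 cells, against 1.84 and 2.602 TPM in naive cells, a log2 change of 5.53 ± 0.44 (adjusted p = 4.74e-05). Its place in the genome is chromosome 8 from 94745684 to 94751388, GRCm38.p6 coordinates, as for the genes placed below. Gbp2b, an interferon-inducible guanylate-binding protein gene with near-identical relatives that may share its reads, had 21.4 and 26.6 TPM in div0 cells, against 0.153 and 0.236 TPM in naive cells. Adipoq, the gene of the fat-cell hormone adiponectin, had 13.2 and 17.1 TPM in div0 cells, against 0.3598 and 0.3702 TPM in naive cells (3.55 ± 0.23). Ache, which encodes acetylcholinesterase, had 17.01 and 18.4 TPM in div0 cells, against 0.462 and 1.05 TPM in naive cells (3.43 ± 0.41). In each of these genes the naive level was at most a few TPM, and both div0 libraries stood far above it.

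Other steep rises were in genes of peptides, receptors and nuclear proteins. Adm, the gene of the peptide adrenomedullin, stood at 143 and 135 TPM in div0 cells, against 12.1 and 18.7 TPM in naive cells (3.13 ± 0.32, adjusted p = 1.5e-04), on chromosome 7 from 110627657 to 110629820. Havcr1, which encodes TIM-1, a phosphatidylserine receptor that marks regulatory B cells in mice, stood at 68.6 and 82.1 TPM in div0 cells, against 10.6 and 6.73 TPM in naive cells. Carmil3, a regulator of actin capping, stood at 64.5 and 77.9 TPM in div0 cells, against 5.37 and 6.79 TPM in naive cells. Aire, the transcription regulator known for self-antigen expression in the thymus, stood at 45.6 and 45.2 TPM in div0 cells, against 3.32 and 4.54 TPM in naive cells, and Snai1, a zinc-finger repressor of cadherin genes, at 32.7 and 42.3 TPM in div0 cells, against 2.75 and 3.37 TPM in naive cells. Nbl1, a secreted BMP antagonist, stood at 13.6 and 13.7 TPM in div0 cells, against 0.475 and 0.489 TPM in naive cells. Pif1, a DNA helicase, had 28.3 and 39.3 TPM in div0 cells, against 3.798 and 2.89 TPM in naive cells, and Pmch, the gene of melanin-concentrating hormone, 13.8 and 20.7 TPM in div0 cells, against 0.678 and 2.09 TPM in naive cells. All 15 genes with the largest rise by the naming rule (the others are Wnt10a, Wnt10b and Hspg2, described with their families) kept their call under every alternative tried.

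**Figure D3:**
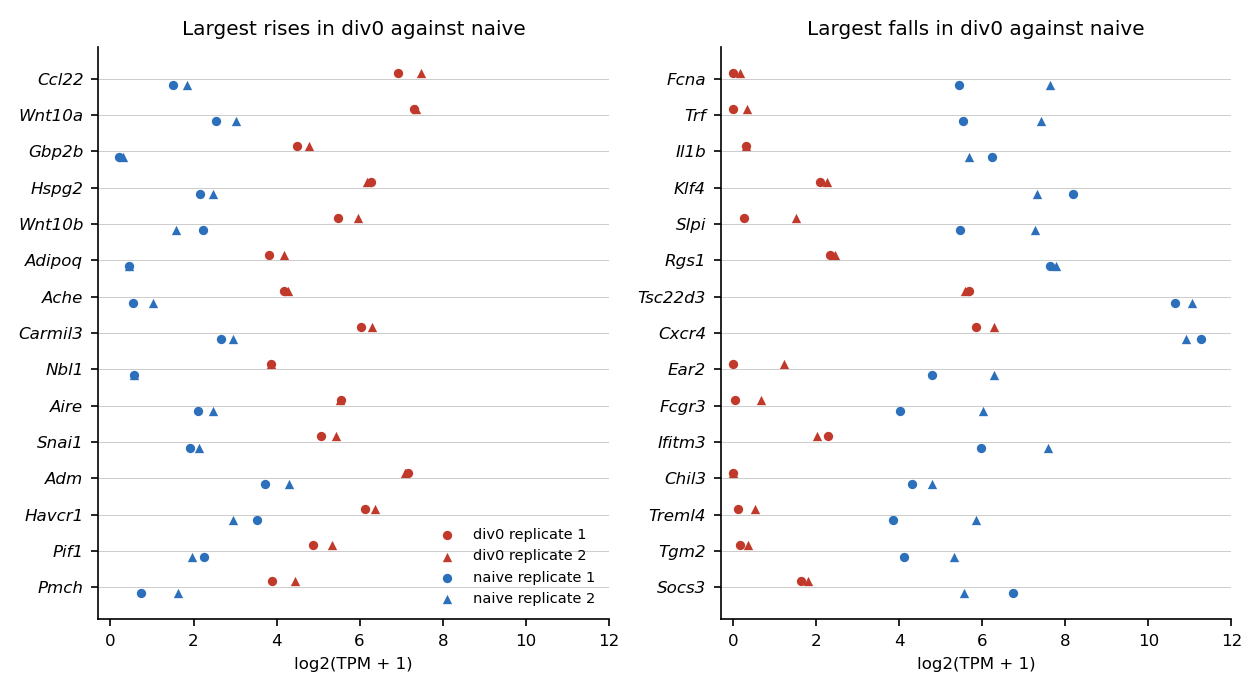
Level of the 15 genes with the largest rise (left) and the 15 with the largest fall (right) outside the cell-cycle, histone, immediate early, small RNA and other-cell marker lists, on the log2(TPM + 1) scale, with 1 point per library and div0 drawn above naive for each gene. The 30 genes were chosen among those whose groups do not overlap. Fcna, Trf, Slpi, Ear2, Fcgr3, Ifitm3, Treml4 and Tgm2 lie over 2-fold higher in naive replicate 2 than in naive replicate 1.

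The steepest falls formed a mixed group. Several were genes known from myeloid cells and were higher in naive replicate 2. Fcna, a ficolin of macrophages, had 0 and 0.125 TPM in div0 cells, against 42.6 and 197 TPM in naive cells. Fcgr3, a low-affinity Fc receptor gene, had 0.0295 and 0.597 TPM in div0 cells, against 15.2 and 64.4 TPM in naive cells, and Slpi, a secreted protease inhibitor, 0.203 and 1.86 TPM in div0 cells, against 43.2 and 153 TPM in naive cells. Trf, which encodes transferrin, had 0 and 0.262 TPM in div0 cells, against 45.4 and 170.3 TPM in naive cells. Chil3, a chitinase-like gene of macrophages, was listed at 0 in both libraries of div0, against 18.99 and 26.7 TPM in naive cells. The myeloid sums given above moved with them, and their part in these falls was not tested. Others were not tied to that library. Klf4, a factor that opposes proliferation in B cells, had 3.31 and 3.84 TPM in div0 cells, against 289 and 158 TPM in naive cells (-5.55 ± 0.26). Rgs1, which damps chemokine receptor signalling, had 4.01 and 4.45 TPM in div0 cells, against 196 and 218 TPM in naive cells (-5.31 ± 0.19). Socs3, an inhibitor of cytokine receptors, had 2.12 and 2.49 TPM in div0 cells, against 106 and 46.3 TPM in naive cells (-4.43 ± 0.34), and Il1b, an inflammatory cytokine gene, 0.239 and 0.243 TPM in div0 cells, against 74.6 and 50.4 TPM in naive cells (-5.65 ± 0.22). In Klf4, Socs3 and Il1b naive replicate 1 was the higher one, and in Rgs1 the naive libraries were close. The calls of all 15 genes, which also hold Cxcr4, Tsc22d3, Ear2, Ifitm3, Treml4 and Tgm2, held under every alternative that tested them. At least Fcna, Trf and Il1b missed the filter without naive replicate 1 or 2 and were not tested there. The largest adjusted p of those named here was 2.93e-04 (Fcgr3).

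In both lists of antigen reception falls outnumbered rises, as they did over all tested genes, of which 39.6% fell and 15.4% rose. In the list of antigen receptor signalling, which joins the co-receptors, kinases and adaptors around IgM, 14 of 24 tested members fell (7 with median-ratio scaling, 7 without div0 replicate 2) and 1 rose, shares of 58.3% and 4.17%. With median-ratio scaling, which called 1165 of the 4427 genes lower, 7 of the 24 is close to the share over all genes. The list's median was -0.37, or -0.12 relative to all tested genes. Malt1, a protease that links the receptor to NF-kB, fell to 192 and 176 TPM in div0 cells, against 554 and 391 TPM in naive cells (-1.34 ± 0.15). Lyn, a Src-family kinase, had 403 and 385 TPM in div0 cells, against 657 and 692 TPM in naive cells (-0.77 ± 0.09), and Nfatc3, a calcium-regulated transcription factor, 179.5 and 175 TPM in div0 cells, against 322 and 299 TPM in naive cells (-0.81 ± 0.13). Rasgrp3, which activates RAS downstream of the receptor, was the 1 member that rose, with 546 and 486 TPM in div0 cells, against 365 and 339 TPM in naive cells (0.55 ± 0.11). Of the inhibitory receptors and phosphatases that oppose the receptor 10 of 16 tested members fell (6 with median-ratio scaling or quantile normalization, 6 without div0 replicate 2 or naive replicate 1) and 1 rose. Fcrl5, an Fc receptor-like protein, was the 1 that rose, with 175 and 192 TPM in div0 cells, against 80.2 and 111 TPM in naive cells (0.95 ± 0.17), while Pirb fell, with 115 and 117 TPM in div0 cells, against 197 and 293 TPM in naive cells (-1.04 ± 0.20). Adjusted p-values of the genes named were at most 0.00427 (Rasgrp3), and the call of Rasgrp3 ended when only its most abundant transcript was used.

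The TNF receptor superfamily, to which CD40 belongs, moved in both directions. In this list 22.2% rose and 36.1% fell, beside 15.4% and 39.6% of all tested genes. With their TRAF adaptors 8 of 36 tested members rose and 13 fell (8 without div0 replicate 1 or naive replicate 2), an order that turned with quantile normalization, to 13 that rose and 8 that fell, and the median was -0.18 (0.06 relative to all genes). Fas, a death receptor, had 141 and 143 TPM in div0 cells, against 23.1 and 17.8 TPM in naive cells (2.75 ± 0.21). Tnf, the ligand of the family's founding receptors, had 172 and 156 TPM in div0 cells, against 39.5 and 21.3 TPM in naive cells (2.46 ± 0.28), and Traf1, an adaptor and NF-kB target, 286 and 287 TPM in div0 cells, against 79.3 and 64.4 TPM in naive cells (1.99 ± 0.13). Both receptors for TNF itself fell. Tnfrsf1b stood at 21.2 and 26.6 TPM in div0 cells, against 140.1 and 73.4 TPM in naive cells (-2.05 ± 0.28). Tnfrsf1a stood at 0.141 and 0.5003 TPM in div0 cells, against 8.55 and 23.9 TPM in naive cells, a gene that is also abundant in myeloid cells and was higher in naive replicate 2. Tnfrsf12a, the receptor for TWEAK, stood at 7.09 and 5.09 TPM in div0 cells, against 17.02 and 23.7 TPM in naive cells (-1.59 ± 0.29). All 6 calls held under every alternative, and their largest adjusted p was 0.00228 (Tnfrsf12a).

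NF-kB genes split in direction. Of its subunits, inhibitors and kinases 4 of 13 tested members rose and 6 fell, an order that turned with median-ratio scaling, to 5 that rose and 4 that fell. Nfkbie, an inhibitor, rose, with 645 and 668 TPM in div0 cells, against 349 and 273 TPM in naive cells (1.09 ± 0.15). Nfkb2, the p100 precursor of the CD40-responsive branch, rose, with 1076 and 1077 TPM in div0 cells, against 509 and 565 TPM in naive cells (1.00 ± 0.19). The other rises were in Ikbke, an IKK-related kinase, and in Relb, the partner of p52. Ikbke had 72.003 and 74.03 TPM in div0 cells, against 35.05 and 42.3 TPM in naive cells (0.91 ± 0.12). Relb had 264 and 265 TPM in div0 cells, against 183 and 196 TPM in naive cells (0.48 ± 0.10). Among the falls, Nfkbiz had 61.2 and 54.6 TPM in div0 cells, against 188 and 118 TPM in naive cells (-1.35 ± 0.24) and Map3k14, the kinase NIK that starts processing of p100, 56.2 and 57.3 TPM in div0 cells, against 117 and 121 TPM in naive cells (-1.05 ± 0.18). Rel stood at 207 and 202 TPM in div0 cells, against 1015 and 290.5 TPM in naive cells, with naive replicate 1 far above naive replicate 2. By limma, the calls named had adjusted p-values of up to 0.0275 (Rel), and calls ended for Relb (with the most abundant transcript) and Rel (with median-ratio scaling, without div0 replicate 1 or 2, 5 of 15 alternatives in all).

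The letters of an NF-kB motif stood in a larger share of promoters of genes that rose than of all promoters, which describes sequence and not binding. RefSeq promoters (GRCm38.p6, 250 bases before to 50 after each gene start) were matched for 3435 of the 4427 tested genes and searched on both strands. The letters GGANTTNCC were found in 184 of 3435 promoters (5.36%), in 44 of 533 promoters of genes that rose (8.26%), and in 20 of 162 of those that rose by at least 2-fold (12.3%). Outside the cell-cycle list the last share was 13 of 119 (10.9%), and among genes that fell by at least 2-fold it was 22 of 471 (4.67%). The letters CCAAT, bound by NF-Y, were in 53.1% of promoters of genes that rose at least 2-fold, against 43.2% of all. In the genes that rose at least 2-fold, CACGTG (E-box) was in 8.02%, against 11.6% of all, and TGANTCA (AP-1) in 9.26%, against 8.06% of all. CCACACCC (KLF) was in 5.56% of them, against 4.75% of all, and TGACGTCA (CRE) in 2.47%, against 3.17% of all. Outside the cell-cycle list these shares were 47.1% for CCAAT, 6.72% for CACGTG, 11.8% for TGANTCA, 6.72% for CCACACCC and 0.84% for TGACGTCA. No test was run on these shares, and a promoter can hold several of the motifs, also overlapping. The promoter stretches below belong to genes that rose at least 2-fold, the receptor Ccr6, the subunit Nfkb2, the adhesion ligand Icam1 and the peptide gene Adm, chosen after their values were seen to show such a match upstream of the gene start. Each is 5′ to 3′ on the plus strand, with the match in capitals, at chr17:8242402-8242501, chr19:46304637-46304736, chr9:21015742-21015841 and chr7:110627407-110627506. In Icam1 and Adm the letters read as the motif on the other strand.
Ccr6: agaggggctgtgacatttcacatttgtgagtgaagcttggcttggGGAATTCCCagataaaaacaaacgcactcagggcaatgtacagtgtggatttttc
Nfkb2: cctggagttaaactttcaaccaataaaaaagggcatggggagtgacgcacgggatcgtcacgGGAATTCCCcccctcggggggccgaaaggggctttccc
Icam1: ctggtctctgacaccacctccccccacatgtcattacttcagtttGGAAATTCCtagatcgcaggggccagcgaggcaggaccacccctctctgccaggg
Adm: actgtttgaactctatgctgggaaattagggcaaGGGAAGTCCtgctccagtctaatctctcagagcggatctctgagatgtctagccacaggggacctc

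Of the cytokine receptors 55.9% fell, beside 39.6% of all tested genes, and 1 rose steeply. In that list 19 of 34 tested members fell and 2 rose (5 with quantile normalization), and the median was -0.71 (-0.47 relative to all genes). Il9r, the interleukin-9 receptor chain, had 1372 and 1341 TPM in div0 cells, against 150.3 and 218 TPM in naive cells (2.899 ± 0.26, adjusted p = 7.73e-05), which made it the most abundant rise in the list. Il2ra, the high-affinity chain for interleukin-2, had 17.3 and 24.97 TPM in div0 cells, against 7.698 and 10.1 TPM in naive cells (1.15 ± 0.25). Il2rb, the shared chain for interleukin-2 and interleukin-15, fell, with 4.62 and 5.15 TPM in div0 cells, against 42.9 and 54.99 TPM in naive cells (-3.07 ± 0.17), a gene that NK cells also express. Csf1r, the receptor that defines macrophages, had 0.187 and 1.98 TPM in div0 cells, against 54.1 and 213 TPM in naive cells, and Il18rap, a receptor chain of NK cells, 0.205 and 0.387 TPM in div0 cells, against 7.68 and 18.7 TPM in naive cells. The myeloid and NK marker sums moved with these falls, and their part was not tested. Downstream, in the list of SOCS, JAK and STAT genes 9 of 15 tested members fell (3 with median-ratio scaling, 5 without div0 replicate 2) and 2 rose (0 without div0 replicate 2 or naive replicate 2). The fall of Socs3 given above was the largest in it, while Jak3 rose, with 266 and 282 TPM in div0 cells, against 201 and 183 TPM in naive cells (0.51 ± 0.13), a call that ended without div0 replicate 2 or naive replicate 2 and with the most abundant transcript.

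Of the receptors for chemokines and lipid attractants 63.6% fell and 12.1% rose, beside 39.6% and 15.4% of all tested genes. In this list 21 of 33 tested members fell and 4 rose (2 without div0 replicate 1 or 2), with a median of -1.23 (-0.99 relative to all genes). The list is not limited to receptors of B cells and holds some of myeloid cells. The myeloid sums were higher in naive cells, and their part in the share and the median was not tested. S1pr1, which leads cells out of lymphoid tissue along sphingosine-1-phosphate, fell to 46.6 and 43.2 TPM in div0 cells, against 852 and 556 TPM in naive cells (-3.91 ± 0.29). Cxcr4, given above, fell by 5.02 on the log2 scale. Ccr2, a monocyte receptor that was higher in naive replicate 2, had 0.729 and 1.04 TPM in div0 cells, against 10.03 and 31.7 TPM in naive cells. Few receptors rose. Ccr6, the receptor for CCL20, had 1244 and 1091 TPM in div0 cells, against 598 and 438 TPM in naive cells (1.19 ± 0.16), and its promoter carries 1 of the matches printed above. Ccr1, a receptor for CCL3 and CCL5, had 84.9 and 77.4 TPM in div0 cells, against 15.9 and 14.6 TPM in naive cells (2.34 ± 0.14), and Ackr3, the scavenging receptor for CXCL12, 50.1 and 55.4 TPM in div0 cells, against 28.5 and 22.5 TPM in naive cells (1.03 ± 0.37). Among genes named Gpr or Adgr 5 of 17 tested members fell and 1 rose (4 with median-ratio scaling or quantile normalization). The proton sensor Gpr65 fell, with 27.9 and 28.6 TPM in div0 cells, against 94.3 and 76.9 TPM in naive cells (-1.56 ± 0.12), and the adhesion receptor gene Adgrg1 rose, with 18.4 and 23.1 TPM in div0 cells, against 4.24 and 7.85 TPM in naive cells (1.67 ± 0.44). None of the calls named had an adjusted p above 0.04203 (Ackr3), and calls ended for Ackr3 (without div0 replicate 1 or 2 or naive replicate 1 or 2, with no filter, 7 of 15 alternatives in all) and Adgrg1 (without div0 replicate 2 or naive replicate 1).

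The largest rise among pattern receptor genes was in an adaptor. In the list of toll-like receptors and their adaptors 8 of 26 tested members fell (13 without naive replicate 1) and 2 rose (5 with quantile normalization). With TPM as deposited the shares were 30.8% and 7.69%, both below the 39.6% and 15.4% of all tested genes. The list's median was -0.24, or 0.01 relative to all genes. Ticam2, which links TLR4 to the adaptor TRIF, had 86.6 and 95.98 TPM in div0 cells, against 10.1 and 11.97 TPM in naive cells (2.94 ± 0.20), and Ticam1, TRIF itself, 87.7 and 90.7 TPM in div0 cells, against 31.2 and 63.2 TPM in naive cells (0.99 ± 0.28). Nod1, a sensor of bacterial cell walls, fell, with 9.39 and 10.8 TPM in div0 cells, against 44.8 and 63.8 TPM in naive cells (-2.301 ± 0.38), as did Tlr6, with 9.95 and 10.8 TPM in div0 cells, against 18.4 and 20.6 TPM in naive cells (-0.85 ± 0.14). Among these calls the highest adjusted p was 0.0165 (Ticam1), and the call of Ticam1 ended without either div0 library and in the fit of the 4 libraries alone.

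Kinases of the MAP kinase cascades fell in 62.5% of cases and the phosphatases that oppose them in 54.5%, beside 39.6% of all tested genes. Among MAP kinases and the kinases above them 15 of 24 tested members fell (8 with median-ratio scaling or quantile normalization, 9 without div0 replicate 1) and 2 rose (4 with median-ratio scaling or quantile normalization, 0 without div0 replicate 1). Mapk12, a p38 isoform, had 6.83 and 8.35 TPM in div0 cells, against 29.5 and 35.5 TPM in naive cells (-1.96 ± 0.22) and Map4k2 405 and 421 TPM in div0 cells, against 743 and 795 TPM in naive cells (-0.90 ± 0.11), while Map2k1, the kinase MEK1, rose slightly, with 447 and 429 TPM in div0 cells, against 348 and 345 TPM in naive cells (0.34 ± 0.09). Of the dual-specificity phosphatases that switch MAP kinases off, 6 of 11 tested members fell and 0 rose (2 without naive replicate 1). Dusp1 and Dusp5 are immediate early genes. Dusp1 had 16.8 and 16.8 TPM in div0 cells, against 448 and 666 TPM in naive cells. Dusp5 had 4.76 and 4.497 TPM in div0 cells, against 254 and 40.8 TPM in naive cells, naive replicate 1 being far above naive replicate 2. Dusp2, which is rich in lymphocytes, had 263 and 217 TPM in div0 cells, against 821 and 883 TPM in naive cells (-1.83 ± 0.10). Among RAS exchange factors, RAS GAPs and SPRY genes 9 of 17 tested members fell and 1 rose (3 with median-ratio scaling or quantile normalization). Rasgrp2, the exchange factor that activates the integrin switch RAP1, had 98.8 and 95.7 TPM in div0 cells, against 627 and 691 TPM in naive cells (-2.75 ± 0.17), and Rasa3, a GAP for RAS and RAP1, 123 and 119 TPM in div0 cells, against 584 and 586 TPM in naive cells (-2.26 ± 0.25). Spry2 had 6.18 and 6.11 TPM in div0 cells, against 23.1 and 18.1 TPM in naive cells (-1.59 ± 0.30). The call of Map2k1 ended without div0 replicate 1, and the largest adjusted p was 0.0106 (Map2k1).

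Genes of cyclic nucleotides fell in a share of 43.8%, beside 39.6% of all tested genes. Among phosphodiesterases, adenylyl cyclases and their kinases 7 of 16 tested members fell and 3 rose (5 with quantile normalization, 1 without div0 replicate 1 or 2 or naive replicate 1). Pde4a rose, with 62.1 and 81.8 TPM in div0 cells, against 18.1 and 33.7 TPM in naive cells (1.49 ± 0.32), while its relative Pde4b fell, with 116 and 103 TPM in div0 cells, against 436 and 296 TPM in naive cells (-1.71 ± 0.19), and Pde2a fell, with 19.2 and 15.98 TPM in div0 cells, against 204 and 154 TPM in naive cells (-3.27 ± 0.24). In Pde4b and Pde2a both naive libraries were more than 2-fold above both div0 libraries. Among RGS genes 3 of 6 tested members fell and 1 rose, with Rgs14 at 134 and 126 TPM in div0 cells, against 188 and 237 TPM in naive cells (-0.70 ± 0.12) beside Rgs1. The largest adjusted p here was 0.00534 (Pde4a), and all 4 calls held under every alternative.

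The share of members that fell ranged from 36.4% in the FOX factors to all 8 of the KLF factors, beside 39.6% of all tested genes. Of the KLF factors all 8 tested members fell (5 with quantile normalization, 5 without div0 replicate 2), with a median of -1.64 (-1.40 relative to all genes). Klf2, which maintains quiescence and S1PR1 in lymphocytes, had 78.3 and 79.4 TPM in div0 cells, against 2103 and 1292 TPM in naive cells (-4.37 ± 0.24), and Klf6 had 63.7 and 63.3 TPM in div0 cells, against 894 and 353 TPM in naive cells (-3.12 ± 0.34). In the list of AP-1, ATF and CEBP factors 19 of 23 tested members fell and 2 rose, with a median of -1.42 (-1.17 relative to all genes). Fos, the immediate early AP-1 gene, had 3.74 and 1.83 TPM in div0 cells, against 970.4 and 1702 TPM in naive cells, and Fosb 0.742 and 0.598 TPM in div0 cells, against 536 and 463 TPM in naive cells. Batf, an AP-1 partner needed for class switching, went against the list, with 93.1 and 93.3 TPM in div0 cells, against 64.4 and 66.8 TPM in naive cells (0.50 ± 0.10). The immediate early sums, given above, moved with the KLF and AP-1 lists. Klf2, Klf4, Klf6, Fos, Fosb and Batf kept their calls under every alternative that tested them, and their largest adjusted p was 0.002896 (Batf).

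Nuclear receptor, ETS and IRF genes held further falls, and the FOX share of falls, 36.4%, was below the 39.6% of all tested genes. Of the nuclear receptors 16 of 24 tested members fell and 1 rose, with a median of -0.76. Nr4a1, an immediate early gene induced by antigen receptor signalling, ranged widely in naive cells, with 40.8 and 40.9 TPM in div0 cells, against 4603 and 546 TPM in naive cells. Nr1h3, the oxysterol receptor LXR alpha of macrophages, had 1.37 and 2.63 TPM in div0 cells, against 8.51 and 23.6 TPM in naive cells. Rara, the retinoic acid receptor alpha, was the 1 that rose, with 264 and 248 TPM in div0 cells, against 152 and 173 TPM in naive cells (0.66 ± 0.15). Of the ETS factors 6 of 12 tested members fell and 1 rose (3 with median-ratio scaling or quantile normalization), where Ets1, which restrains plasma cell formation, had 565 and 497 TPM in div0 cells, against 1170.2 and 1207 TPM in naive cells (-1.16 ± 0.11) and Fli1 158 and 147 TPM in div0 cells, against 338 and 287 TPM in naive cells (-1.03 ± 0.10). Of the FOX factors 4 of 11 tested members fell and 1 rose (3 with quantile normalization). Foxo1 had 140.5 and 128 TPM in div0 cells, against 278 and 268 TPM in naive cells (-1.02 ± 0.16), Foxo4 42.7 and 41.5 TPM in div0 cells, against 92.5 and 94.2 TPM in naive cells (-1.13 ± 0.10) and Foxp1 191 and 181 TPM in div0 cells, against 436 and 378 TPM in naive cells (-1.12 ± 0.15), all of them close to 2-fold. The 1 FOX gene that rose was Foxm1, a driver of mitotic genes, with 80.3 and 112 TPM in div0 cells, against 22.02 and 18.6 TPM in naive cells (2.17 ± 0.25). Of the IRF factors 4 of 8 tested members fell and 0 rose (2 with median-ratio scaling or quantile normalization), and Irf7, the interferon amplifier, had 23.1 and 26.2 TPM in div0 cells, against 175 and 189 TPM in naive cells (-2.84 ± 0.26). Adjusted p-values of the genes named were at most 0.006504 (Rara).

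Helix-loop-helix and fate factors held a few rises. In the list of bHLH, MYC and ID genes 13 of 27 tested members fell (5 with quantile normalization, 7 without div0 replicate 1 or 2) and 1 rose (3 with median-ratio scaling or quantile normalization, 3 without naive replicate 2). Id3, an inhibitor of E proteins, rose, with 410.2 and 427 TPM in div0 cells, against 76.7 and 164 TPM in naive cells (1.89 ± 0.28), while its relative Id2 fell, with 10.9 and 11.4 TPM in div0 cells, against 81.7 and 104 TPM in naive cells (-2.94 ± 0.20), a gene that NK and myeloid cells also express. Hes1, a Notch target, fell, with 14.3 and 13.4 TPM in div0 cells, against 115 and 140.1 TPM in naive cells (-3.11 ± 0.27). Myc stood at 177 and 202 TPM in div0 cells, against 1028 and 429 TPM in naive cells (-1.81 ± 0.35), and the naive libraries differed from each other by more than 2-fold. Among B cell fate factors 13 of 25 tested members fell (8 with quantile normalization, 7 without div0 replicate 2) and 4 rose. Mef2b, a germinal centre factor, rose, with 87.4 and 107 TPM in div0 cells, against 45.3 and 19.8 TPM in naive cells (1.66 ± 0.37), and Bach2, a repressor of plasma cell fate, fell, with 113 and 108 TPM in div0 cells, against 277 and 260.3 TPM in naive cells (-1.27 ± 0.15). Of the Zfp zinc-finger genes 8 of 19 tested members fell and 2 rose (4 without naive replicate 2), an order that turned with quantile normalization, to 7 that rose and 5 that fell. Zfp36l2 and Zfp36 encode proteins that speed mRNA decay. Zfp36l2 had 84.5 and 81.2 TPM in div0 cells, against 293 and 996 TPM in naive cells. Zfp36 had 634 and 384 TPM in div0 cells, against 1418 and 2255 TPM in naive cells. Zfp296 rose, with 119.6 and 118 TPM in div0 cells, against 38.2 and 69.1 TPM in naive cells (1.19 ± 0.23). By limma, the calls named had adjusted p-values of up to 0.00615 (Mef2b), and all 9 calls held under every alternative.

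Among secreted factors 13.3% of the chemokines and 10.3% of the interleukins and growth factors rose, near the 15.4% of all tested genes. Of the chemokines 10 of 15 tested members fell (5 without naive replicate 1) and 2 rose. Ccl22 and Cx3cl1, given above, were the 2 that rose. Ccl3, Ccl4 and Ccl5 are inflammatory chemokines of T, NK and myeloid cells as well. Ccl3 had 5.36 and 3.795 TPM in div0 cells, against 68.7 and 55.2 TPM in naive cells. Ccl4 had 5.99 and 3.96 TPM in div0 cells, against 132 and 38.7 TPM in naive cells, and Ccl5 had 17.96 and 29.7 TPM in div0 cells, against 192 and 273 TPM in naive cells. Among interleukins and growth factors 20 of 39 tested members fell (9 with quantile normalization, 10 without naive replicate 1) and 4 rose (7 with quantile normalization), with a median of -0.66 (-0.42 relative to all genes). Ebi3, the subunit shared by interleukin-27 and interleukin-35, had 196 and 228 TPM in div0 cells, against 50.5 and 60.9 TPM in naive cells (1.91 ± 0.17), and Il12a, the p35 subunit of interleukin-12 and interleukin-35, 239 and 215 TPM in div0 cells, against 87.5 and 105 TPM in naive cells (1.24 ± 0.17). Il15 had 10.7 and 15.3 TPM in div0 cells, against 2.93 and 7.46 TPM in naive cells (1.26 ± 0.34). Il11 fell, with 22.8 and 21.6 TPM in div0 cells, against 59.3 and 63.9 TPM in naive cells (-1.43 ± 0.18). None of the calls named had an adjusted p above 0.01402 (Il15), and the call of Il15 ended without div0 replicate 2 and in the fit of the 4 libraries alone.

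Of the 5 WNT ligand genes tested, Wnt10a, Wnt10b and Wnt6 rose, Wnt4 fell and Wnt2b was not called (adjusted p = 0.168). In the WNT list 5 of 24 tested members rose (3 without div0 replicate 1 or 2) and 11 fell (6 without div0 replicate 1 or naive replicate 2), an order that turned with quantile normalization, to 6 that rose and 4 that fell, and the median was -0.33 (-0.09 relative to all genes). These shares, 20.8% and 45.8%, were close to those of all tested genes. Wnt10a had 158 and 163 TPM in div0 cells, against 4.85 and 7.17 TPM in naive cells (4.55 ± 0.23), on chromosome 1 from 74792019 to 74804176, and Wnt10b 43.3 and 61.3 TPM in div0 cells, against 3.66 and 1.98 TPM in naive cells (3.82 ± 0.30), on chromosome 15 from 98770712 to 98778206. Both were below 10 TPM in each naive library and above 40 TPM in each div0 library. Wnt6 had 1.03 and 1.05 TPM in div0 cells, against 0 and 0.102 TPM in naive cells (0.96 ± 0.27), and Wnt4 3.24 and 2.31 TPM in div0 cells, against 7.84 and 6.92 TPM in naive cells (-1.16 ± 0.19). Lef1, a nuclear partner of beta-catenin, had 54.2 and 54.6 TPM in div0 cells, against 28.5 and 26.98 TPM in naive cells (0.95 ± 0.24). The receptor gene Fzd5 fell, with 4.01 and 4.502 TPM in div0 cells, against 18.8 and 8.97 TPM in naive cells (-1.42 ± 0.29), as did Apc, of the destruction complex, with 52.2 and 47.6 TPM in div0 cells, against 92.7 and 85.5 TPM in naive cells (-0.82 ± 0.11), and Dvl1, which relays the signal, with 78.7 and 84.7 TPM in div0 cells, against 120.3 and 138 TPM in naive cells (-0.65 ± 0.11). Of the Notch pathway genes 5 of 12 tested members fell and 0 rose (3 with quantile normalization, 2 without naive replicate 2). Notch1 had 11.1 and 11.6 TPM in div0 cells, against 28.8 and 32.9 TPM in naive cells (-1.37 ± 0.19), and Lfng, a modifier of Notch receptors, 54.7 and 50.4 TPM in div0 cells, against 90.8 and 147 TPM in naive cells (-1.12 ± 0.20). Among these calls the highest adjusted p was 0.0174 (Wnt6), and calls ended for Wnt6 (without div0 replicate 1 or 2 or naive replicate 1, with a pseudocount of 5), Wnt4 (with quantile normalization), Lef1 (without div0 replicate 1 or 2) and Fzd5 (with quantile normalization).

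Integrin genes were lower, with matrix genes split. Of the integrins 12 of 14 tested members fell and 0 rose, with a median of -1.28 (-1.04 relative to all genes). Itgax, an integrin of dendritic cells, had 0.778 and 1.63 TPM in div0 cells, against 17.5 and 44.1 TPM in naive cells. Itgam, an integrin of myeloid cells, had 1.84 and 2.399 TPM in div0 cells, against 18.6 and 38.8 TPM in naive cells, and both were higher in naive replicate 2. The myeloid sums moved with them, and their part was not tested. In the list of extracellular matrix and proteoglycan genes 18 of 38 tested members fell (10 with quantile normalization, 11 without naive replicate 2) and 5 rose (3 without div0 replicate 2). Hspg2, which encodes the basement membrane proteoglycan perlecan, had 75.8 and 71.2 TPM in div0 cells, against 3.45 and 4.58 TPM in naive cells (3.902 ± 0.34), on chromosome 4 from 137468751 to 137570630. Spp1, the gene of osteopontin, had 13.7 and 10.8 TPM in div0 cells, against 3.54 and 1.82 TPM in naive cells (1.88 ± 0.31), and Nid1, nidogen, 40.8 and 48.03 TPM in div0 cells, against 20.002 and 24.96 TPM in naive cells (0.96 ± 0.22). Fn1, fibronectin, fell, with 0.248 and 0.144 TPM in div0 cells, against 9.27 and 27.1 TPM in naive cells. Among semaphorins, plexins, ephrins and Eph receptors 10 of 24 tested members fell (6 without div0 replicate 1 or 2) and 2 rose, an order that turned with quantile normalization, to 6 that rose and 3 that fell. The 2 that rose are a known ligand and receptor pair: Sema7a had 199 and 215 TPM in div0 cells, against 76.1 and 66.7 TPM in naive cells (1.53 ± 0.25) and Plxnc1 261 and 236 TPM in div0 cells, against 88.6 and 89.02 TPM in naive cells (1.47 ± 0.11). Sema4b fell, with 89.5 and 93.6 TPM in div0 cells, against 197 and 261 TPM in naive cells (-1.301 ± 0.18). The largest adjusted p here was 0.00727 (Nid1), and the call of Nid1 ended without div0 replicate 2.

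Genes of surface proteins used in contact with T cells moved in both directions. In the costimulatory and SLAM list, which also holds Havcr1, 8 of 16 tested members fell and 4 rose. These shares were 50% and 25%, beside 39.6% and 15.4% of all tested genes. The list's median was -0.27, or -0.03 relative to all genes. Cd80, a ligand of CD28, had 33.7 and 45.9 TPM in div0 cells, against 11.7 and 15.1 TPM in naive cells (1.498 ± 0.17), and Icam1, the ligand of LFA-1, 295 and 305 TPM in div0 cells, against 92.5 and 163 TPM in naive cells (1.28 ± 0.24). Vsir, an inhibitory ligand of myeloid cells and T cells, fell, with 3.84 and 5.89 TPM in div0 cells, against 34.8 and 47.5 TPM in naive cells (-2.85 ± 0.27), and Cd274, which encodes PD-L1, stood at 87.2 and 81.7 TPM in div0 cells, against 522 and 156 TPM in naive cells, with naive replicate 1 far above replicate 2. Of the tetraspanins 6 of 11 tested members fell (3 with median-ratio scaling or quantile normalization, 2 without div0 replicate 2) and 3 rose (0 without div0 replicate 2). Their shares were 54.5% and 27.3%, beside the same 39.6% and 15.4%. Cd82 rose slightly, with 486 and 526 TPM in div0 cells, against 329.9 and 397 TPM in naive cells (0.48 ± 0.11), and Tspan14 fell, with 78.5 and 78.4 TPM in div0 cells, against 148 and 163 TPM in naive cells (-0.97 ± 0.09). Antigen presentation changed little per gene: 4 of 15 tested members fell (2 without div0 replicate 2) and 0 rose, an order that turned with median-ratio scaling, to 2 that rose and 1 that fell, while with quantile normalization 8 fell and 1 rose, and the median was -0.17, or 0.07 relative to all genes. With TPM as deposited 26.7% of the presentation genes fell, below the 39.6% of all tested genes. The transporter gene Tap2 had 225 and 239 TPM in div0 cells, against 333 and 389.7 TPM in naive cells (-0.63 ± 0.10). The class II gene H2-Aa was not called, with 15728 and 13972 TPM in div0 cells and 18798 and 15256 TPM in naive cells, and those groups overlap. Adjusted p-values of the genes named were at most 0.0116 (Cd274), and calls ended for Cd274 (without div0 replicate 2, in a fit of these groups alone) and Cd82 (without div0 replicate 2, with the most abundant transcript).

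**Figure D4:**
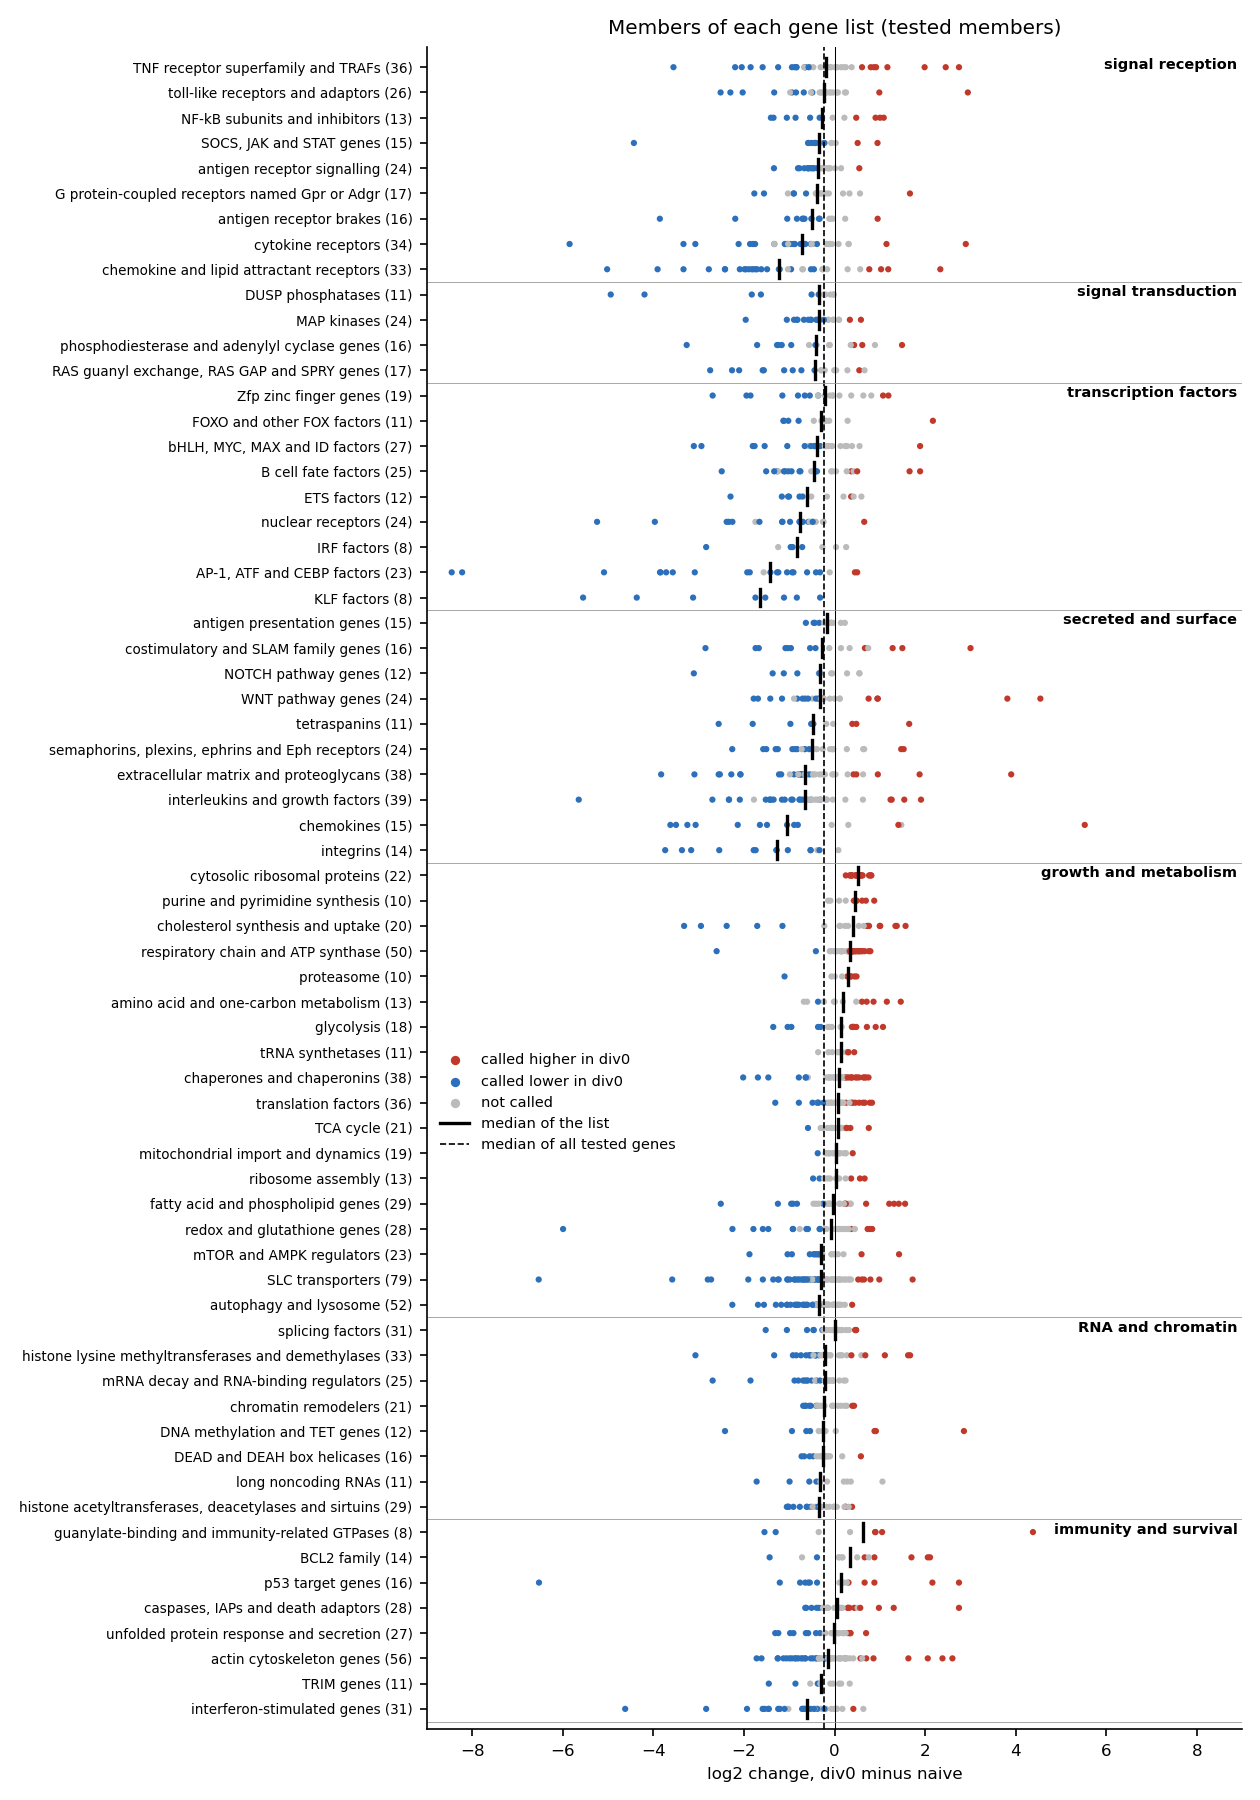
Log2 change, div0 minus naive, of each tested member of lists that had 8 or more genes tested, grouped by role (bold), with the number of tested members in brackets. Red points were called higher, blue points lower and grey points were not called. The short bar is the list's median and the dashed line the median of all tested genes, -0.24. Medians of the ribosomal, respiratory and nucleotide lists lie right of 0 and those of the KLF, AP-1, integrin, chemokine and attractant receptor lists below -1.

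Genes of the ribosome rose in div0 cells, each by a modest step. Of the cytosolic ribosomal protein genes all 22 tested members rose (13 with quantile normalization), with log2 changes between 0.25 and 0.81 and a median of 0.51 (0.75 relative to all genes). Together they summed to 178858 and 180056 TPM in div0 cells, against 120745 and 127091 TPM in naive cells. Rpsa had 7807 and 8164 TPM in div0 cells, against 4525 and 4563 TPM in naive cells (0.81 ± 0.08) and Rpl29 5498 and 5604 TPM in div0 cells, against 3117 and 3234 TPM in naive cells (0.81 ± 0.08). Ribosomal protein genes have many pseudogene copies, and how reads shared with these were counted is not given in the sources used here. Of the mitochondrial ribosomal proteins 4 of 5 tested members rose (1 without div0 replicate 1 or 2) and 0 fell. Mrpl12, of their large subunit, had 255 and 289.95 TPM in div0 cells, against 139.7 and 192 TPM in naive cells (0.73 ± 0.15). In ribosome assembly 3 of 13 tested members rose (6 with median-ratio scaling) and 2 fell. Npm1, a nucleolar chaperone, had 2383 and 2529.7 TPM in div0 cells, against 1555 and 1544 TPM in naive cells (0.66 ± 0.07), and Polr1c, shared by RNA polymerases I and III, 173 and 176 TPM in div0 cells, against 115 and 121 TPM in naive cells (0.56 ± 0.08), while Rrn3, the initiation factor of RNA polymerase I, fell, with 57.3 and 56.2 TPM in div0 cells, against 78.4 and 79.9 TPM in naive cells (-0.47 ± 0.10). By limma, the calls named had adjusted p-values of up to 0.00522 (Rrn3).

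Genes of translation and protein folding moved in both directions. Of the translation factors 9 of 36 tested members rose (18 with median-ratio scaling) and 7 fell (2 with median-ratio scaling, 3 without div0 replicate 2). Eef1b2 and Eef1g are subunits of the exchange factor of elongation. Eef1b2 had 1593 and 1624 TPM in div0 cells, against 918 and 957 TPM in naive cells (0.78 ± 0.08). Eef1g had 3219 and 3364 TPM in div0 cells, against 1977 and 2164 TPM in naive cells (0.67 ± 0.11). Eif2ak3, the kinase PERK that slows initiation under endoplasmic reticulum stress, fell, with 86.5 and 80.4 TPM in div0 cells, against 247 and 176 TPM in naive cells (-1.31 ± 0.16), and Eif5 fell, with 337 and 317 TPM in div0 cells, against 687 and 465 TPM in naive cells (-0.79 ± 0.16). Of the tRNA synthetases 3 of 11 tested members rose (6 with median-ratio scaling, 0 without div0 replicate 2) and 0 fell. Of the chaperones and chaperonins 13 of 38 tested members rose (23 with quantile normalization, 8 without div0 replicate 1 or 2 or naive replicate 1) and 6 fell (2 with quantile normalization, 3 without div0 replicate 2). Ppia, cyclophilin A, had 9528 and 10334 TPM in div0 cells, against 6003 and 5794 TPM in naive cells (0.75 ± 0.09), and Tcp1, a subunit of the CCT chaperonin, 599.7 and 632 TPM in div0 cells, against 390.2 and 387 TPM in naive cells (0.66 ± 0.10). Hspa5, the main chaperone of the endoplasmic reticulum, fell, with 689 and 702 TPM in div0 cells, against 1215 and 958 TPM in naive cells (-0.63 ± 0.11). Of the proteasome genes 6 of 10 tested members rose (1 without div0 replicate 2) and 1 fell. Psmc5 rose, with 317 and 311 TPM in div0 cells, against 202 and 249 TPM in naive cells (0.49 ± 0.10), and Psmb11, known as the thymus-specific subunit, fell, with 4.44 and 5.96 TPM in div0 cells, against 12.9 and 11.6 TPM in naive cells (-1.105 ± 0.18). In the list of unfolded protein response and secretion genes 5 of 27 tested members rose (2 without div0 replicate 2) and 8 fell (5 without div0 replicate 2 or naive replicate 2), an order that turned with median-ratio scaling, to 12 that rose and 6 that fell and with quantile normalization, to 13 that rose and 5 that fell. None of the calls named had an adjusted p above 0.00469 (Psmc5), and all 9 calls held under every alternative.

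Many genes of mitochondrial respiration rose. Of the respiratory chain and ATP synthase genes 31 of 50 tested members rose (17 without div0 replicate 2) and 2 fell, with a median of 0.35 (0.59 relative to all genes). Their sum was 25218 and 25189.9 TPM in div0 cells, against 18873 and 19508 TPM in naive cells. Atp5g2, of the ATP synthase ring, had 1725 and 1823 TPM in div0 cells, against 1022 and 1025 TPM in naive cells (0.79 ± 0.07), and Cox6c, of cytochrome oxidase, 976 and 929 TPM in div0 cells, against 573 and 556 TPM in naive cells (0.75 ± 0.11). Of the genes of the TCA cycle and its pyruvate entry 4 of 21 tested members rose (11 with median-ratio scaling, 1 without div0 replicate 2) and 1 fell. The pyruvate dehydrogenase kinase Pdk3 rose, with 76.3 and 75.6 TPM in div0 cells, against 44.4 and 44.7 TPM in naive cells (0.76 ± 0.08), while its relative Pdk1 fell, with 39.1 and 36.05 TPM in div0 cells, against 54.7 and 59.1 TPM in naive cells (-0.59 ± 0.11). In mitochondrial import and dynamics 1 of 19 tested members rose (6 with median-ratio scaling or quantile normalization, 3 without naive replicate 2) and 1 fell. In glycolysis 8 of 18 tested members rose and 5 fell (2 with median-ratio scaling or quantile normalization, 2 without div0 replicate 1 or 2 or naive replicate 1). Pgk1 had 503 and 561 TPM in div0 cells, against 281 and 284 TPM in naive cells (0.91 ± 0.08) and Pgam1 369.8 and 373 TPM in div0 cells, against 224 and 228 TPM in naive cells (0.71 ± 0.12), both enzymes of its later steps, whereas Slc2a1, the glucose transporter GLUT1, fell, with 61.04 and 62.6 TPM in div0 cells, against 154 and 106 TPM in naive cells (-1.04 ± 0.17). Among these calls the highest adjusted p was 0.00287 (Pdk1), and the call of Pdk1 ended when only its most abundant transcript was used.

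Some enzymes that make precursors for nucleic acids, proteins and membranes rose, from 24.1% of the fatty acid and phospholipid genes to 6 of 10 in nucleotide synthesis, beside 15.4% of all tested genes. In purine and pyrimidine synthesis 6 of 10 tested members rose and 0 fell, with a median of 0.45. Uck2, a uridine kinase, had 66.6 and 75.8 TPM in div0 cells, against 39.6 and 36.9 TPM in naive cells (0.88 ± 0.15), and Nme2, a nucleoside diphosphate kinase, 1149 and 1201 TPM in div0 cells, against 711 and 742 TPM in naive cells (0.69 ± 0.09). In amino acid and one-carbon metabolism 5 of 13 tested members rose and 1 fell (3 without naive replicate 2). Ahcy, which clears S-adenosylhomocysteine, had 71.3 and 80.5 TPM in div0 cells, against 42.1 and 40.4 TPM in naive cells (0.86 ± 0.12), beside rises of the serine pathway enzymes Psat1 (1.46 ± 0.18) and Phgdh (1.15 ± 0.12). In cholesterol synthesis and uptake 8 of 20 tested members rose (13 with median-ratio scaling, 5 without div0 replicate 2) and 5 fell. The largest rises were in enzymes of synthesis. Sqle had 111 and 135 TPM in div0 cells, against 45.6 and 36.1 TPM in naive cells (1.57 ± 0.24). Idi1 had 147 and 164 TPM in div0 cells, against 67.5 and 54.3 TPM in naive cells (1.35 ± 0.21). Abca1, the exporter of cholesterol, fell, with 12.2 and 11.5 TPM in div0 cells, against 142 and 114 TPM in naive cells (-3.32 ± 0.23), and Apoe, a carrier that macrophages secrete, stood at 108 and 96.7 TPM in div0 cells, against 655 and 968 TPM in naive cells (-2.95 ± 0.38). Among fatty acid and phospholipid genes 7 of 29 tested members rose (15 with quantile normalization, 4 without div0 replicate 2) and 6 fell. Chka, the first enzyme of phosphatidylcholine synthesis from choline, had 254 and 195 TPM in div0 cells, against 84.4 and 66.5 TPM in naive cells (1.56 ± 0.32), and Fabp5, a fatty acid carrier, 49.9 and 69.7 TPM in div0 cells, against 20.1 and 22.9 TPM in naive cells (1.42 ± 0.18), while Cpt1a, which admits fatty acids to mitochondria for oxidation, had 27.1 and 26.3 TPM in div0 cells, against 119.97 and 205 TPM in naive cells (-2.51 ± 0.22). The largest adjusted p here was 0.00407 (Chka), and all 12 calls held under every alternative.

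Of the SLC transporters 45.6% fell and of the autophagy and lysosome genes 51.9%, beside 39.6% of all tested genes. In the transporter list 36 of 79 tested members fell (15 with quantile normalization, 21 without div0 replicate 2) and 6 rose (14 with quantile normalization), with a median of -0.30 (-0.06 relative to all genes). Slc2a6, a hexose transporter of lysosomes, rose, with 116 and 119 TPM in div0 cells, against 35.6 and 34.2 TPM in naive cells (1.72 ± 0.13), and so did Slc25a4, the mitochondrial ADP and ATP carrier, with 438 and 428 TPM in div0 cells, against 201 and 236 TPM in naive cells (0.99 ± 0.10). Slc11a1, a metal transporter of macrophages, fell, with 1.396 and 2.68 TPM in div0 cells, against 17.2 and 68.7 TPM in naive cells, and Slc15a2, a peptide transporter, fell, with 12.8 and 11.004 TPM in div0 cells, against 68.6 and 32.5 TPM in naive cells (-1.91 ± 0.29). Among redox and glutathione genes 11 of 28 tested members fell (7 without div0 replicate 1 or 2) and 4 rose, an order that turned with quantile normalization, to 9 that rose and 7 that fell. Prdx1, a peroxidase, had 740.5 and 751 TPM in div0 cells, against 405 and 433 TPM in naive cells (0.83 ± 0.07), and Sod1, the cytosolic superoxide dismutase, 1307 and 1244 TPM in div0 cells, against 728 and 757 TPM in naive cells (0.78 ± 0.09). Txnip, an inhibitor of thioredoxin and of glucose uptake, fell, with 405 and 348 TPM in div0 cells, against 1544 and 1098 TPM in naive cells (-1.79 ± 0.20), and Hmox1, the heme oxygenase that macrophages use on red cells, was at 3.295 and 3.66 TPM in div0 cells, against 150.004 and 539 TPM in naive cells. In autophagy and lysosome genes 27 of 52 tested members fell (16 with median-ratio scaling) and 1 rose (5 with median-ratio scaling or quantile normalization), with a median of -0.34 (-0.10 relative to all genes). Map1lc3a, an autophagosome protein, had 7.55 and 8.49 TPM in div0 cells, against 59.3 and 29.8 TPM in naive cells (-2.26 ± 0.33), and Ctse, cathepsin E, 18.7 and 21.2 TPM in div0 cells, against 52.9 and 69.2 TPM in naive cells (-1.56 ± 0.24). Of the mTOR and AMPK regulators 12 of 23 tested members fell (4 with median-ratio scaling or quantile normalization, 5 without div0 replicate 1 or 2 or naive replicate 2) and 2 rose (0 without div0 replicate 1 or 2). Pik3ip1, an inhibitor of phosphoinositide 3-kinase, fell, with 32.7 and 29.9 TPM in div0 cells, against 133 and 104 TPM in naive cells (-1.88 ± 0.24), and Rictor, of mTOR complex 2, fell, with 51.6 and 45.9 TPM in div0 cells, against 106 and 96.1 TPM in naive cells (-1.04 ± 0.11). Adjusted p-values of the genes named were at most 0.00102 (Ctse).

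Chromatin genes moved in both directions, and several rises were in genes tied to DNA replication. Of the histone lysine methyltransferases and demethylases 39.4% fell and 15.2% rose, near the 39.6% and 15.4% of all tested genes. Among histone lysine methyltransferases and demethylases 13 of 33 tested members fell (5 without div0 replicate 2) and 5 rose (3 without div0 replicate 2), an order that turned with median-ratio scaling, to 10 that rose and 6 that fell and with quantile normalization, to 9 that rose and 7 that fell. Ezh2, the methyltransferase of Polycomb complex 2, rose, with 188 and 226 TPM in div0 cells, against 63.3 and 69.1 TPM in naive cells (1.62 ± 0.13), and Nsd2, which methylates histone H3 lysine 36, rose, with 106 and 125 TPM in div0 cells, against 54.5 and 51.3 TPM in naive cells (1.11 ± 0.13). Kdm6b, the demethylase that opposes EZH2, fell, with 20.8 and 20.3 TPM in div0 cells, against 358 and 90.6 TPM in naive cells (-3.07 ± 0.51), naive replicate 1 being the higher one. Of the histone acetyltransferases, deacetylases and sirtuins 14 of 29 tested members fell (8 with median-ratio scaling or quantile normalization, 6 without div0 replicate 2) and 3 rose (7 with quantile normalization, 0 without div0 replicate 2). Sirt1, a deacetylase that senses NAD, had 42.9 and 39.6 TPM in div0 cells, against 93.4 and 80.3 TPM in naive cells (-1.05 ± 0.13). Ncoa3, a coactivator, had 127 and 126 TPM in div0 cells, against 273 and 247 TPM in naive cells (-1.03 ± 0.12), and Hdac5, a class II deacetylase, 52.5 and 57.98 TPM in div0 cells, against 106 and 119.6 TPM in naive cells (-1.02 ± 0.15). Of the DNA methylation and TET genes 3 of 12 tested members rose and 4 fell (2 without div0 replicate 1 or 2), an order that turned with median-ratio scaling, to 3 that rose and 2 that fell and with quantile normalization, to 3 that rose and 2 that fell. Uhrf1, which recruits DNMT1 to replicated DNA, had 314 and 411 TPM in div0 cells, against 45.3 and 52.2 TPM in naive cells (2.86 ± 0.19), Dnmt1 275 and 323 TPM in div0 cells, against 155 and 161 TPM in naive cells (0.91 ± 0.20) and the de novo enzyme gene Dnmt3a 93.7 and 97.3 TPM in div0 cells, against 50.8 and 51.8 TPM in naive cells (0.88 ± 0.17). Tet3, an oxidase of methylcytosine, fell, with 60.1 and 59.2 TPM in div0 cells, against 116 and 115 TPM in naive cells (-0.94 ± 0.14). Of the chromatin remodelers 6 of 21 tested members fell and 2 rose (0 without div0 replicate 1 or 2), an order that turned with median-ratio scaling, to 6 that rose and 5 that fell. Bcl7b, a subunit of BAF complexes, had 98.97 and 93.5 TPM in div0 cells, against 158 and 145 TPM in naive cells (-0.65 ± 0.11). Among histone genes 8 of 42 tested members rose (13 with quantile normalization, 4 without div0 replicate 2) and 8 fell (3 with median-ratio scaling, 4 without div0 replicate 1 or 2), and reads of near-identical histone genes may be shared among them. By limma, the calls named had adjusted p-values of up to 0.00551 (Dnmt1), and all 11 calls held under every alternative.

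With TPM as deposited, each list of RNA-processing genes had a smaller share of calls than the 54.9% over all tested genes. Of the splicing factors 3 of 31 tested members rose (1 without div0 replicate 1 or 2) and 7 fell (3 without div0 replicate 1), an order that turned with median-ratio scaling, to 12 that rose and 4 that fell and with quantile normalization, to 9 that rose and 4 that fell, with a median of 0.01, or 0.25 relative to all genes. Mbnl2, a regulator of alternative splicing, fell, with 36.4 and 36.7 TPM in div0 cells, against 81.9 and 72.2 TPM in naive cells (-1.05 ± 0.11), a call that ended when only its most abundant transcript was used. Of the DEAD and DEAH box helicases 5 of 16 tested members fell (3 with median-ratio scaling or quantile normalization, 3 without div0 replicate 1 or 2) and 1 rose. Ddx5 had 2612 and 2319.7 TPM in div0 cells, against 4183 and 3978 TPM in naive cells (-0.73 ± 0.08) and Ddx58, the viral RNA sensor RIG-I, 109.98 and 107 TPM in div0 cells, against 162 and 184 TPM in naive cells (-0.67 ± 0.10), while Ddx1 rose, with 175 and 186 TPM in div0 cells, against 125 and 115 TPM in naive cells (0.58 ± 0.09). Of the regulators of mRNA decay 11 of 25 tested members fell and 0 rose (5 with quantile normalization). Zc3h12a, the endonuclease regnase-1, had 137 and 119.9 TPM in div0 cells, against 279 and 202 TPM in naive cells (-0.88 ± 0.17). Of the long noncoding RNAs 4 of 11 tested members fell (2 without div0 replicate 1) and 0 rose, an order that turned with median-ratio scaling, to 3 that rose and 2 that fell. Neat1, the scaffold of paraspeckles, had 376 and 381 TPM in div0 cells, against 1523 and 1024 TPM in naive cells (-1.72 ± 0.16), and Malat1, of nuclear speckles, 1078 and 932 TPM in div0 cells, against 2053 and 1940.02 TPM in naive cells (-0.99 ± 0.13). None of the calls named had an adjusted p above 0.00277 (Zc3h12a).

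Among 25 tested microRNA genes 2 rose and 9 fell, against 15.4% and 39.6% of all tested genes. The entries are short precursors measured in libraries of ribosome-depleted total RNA, so the values bear on the primary or precursor RNA and not on the mature microRNA, and without known strand use reads of a host gene cannot be told apart. RefSeq sequences (GRCm38.p6) were matched for 23 of the 25. Both mature sequences, 1 from each arm of the hairpin, are printed for 7 of the 8 genes whose call held under every alternative that tested them. The seed, bases 2 to 8, is in capitals, since the seed sets which messages a microRNA pairs with. Mir466i, of a family with many copies, is left out, and no seed is shared among the 14.
mmu-miR-425-5p: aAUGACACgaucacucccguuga
mmu-miR-425-3p: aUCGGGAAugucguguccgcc
mmu-miR-142a-5p: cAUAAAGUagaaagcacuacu
mmu-miR-142a-3p: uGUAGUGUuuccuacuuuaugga
mmu-miR-27a-5p: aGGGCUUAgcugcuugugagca
mmu-miR-27a-3p: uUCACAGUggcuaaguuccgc
mmu-miR-24-2-5p: gUGCCUACugagcugaaacagu
mmu-miR-24-3p: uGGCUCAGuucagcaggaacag
mmu-miR-22-5p: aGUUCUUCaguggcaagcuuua
mmu-miR-22-3p: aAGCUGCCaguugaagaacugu
mmu-miR-18a-5p: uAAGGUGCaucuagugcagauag
mmu-miR-18a-3p: aCUGCCCUaagugcuccuucug
mmu-miR-212-5p: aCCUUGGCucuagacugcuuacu
mmu-miR-212-3p: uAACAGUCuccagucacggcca
Mir425 rose most, with 87.9 and 61.2 TPM in div0 cells, against 6.26 and 6.44 TPM in naive cells (3.34 ± 0.19, adjusted p = 1.19e-05), on chromosome 9 from 108568777 to 108568861. Mir142, of blood cells, had 421 and 405 TPM in div0 cells, against 269 and 237 TPM in naive cells (0.71 ± 0.11). Mir27a and Mir24-2, neighbours on chromosome 8, were listed at 0 in both div0 libraries. In naive cells Mir27a had 43.1 and 114 TPM and Mir24-2 had 31.7 and 38.1 TPM. Mir22 had 4.27 and 13.03 TPM in div0 cells, against 109.7 and 107 TPM in naive cells (-3.67 ± 0.37). Mir18 and Mir212 were listed at 0 in both div0 libraries too, while in naive cells Mir18 had 17.2 and 17.7 TPM and Mir212 29.8 and 6.13 TPM. Mir3064 lies within Ddx5 on the same strand, and both fell, Mir3064 by 1.00 on the log2 scale with 1216 and 1656 TPM in div0 cells, against 3607 and 2242 TPM in naive cells, a call that ended without div0 replicate 1 and in the fit of the 4 libraries alone. An exact 0 for so short a transcript can be a failed estimate, and depth is unknown. The other 3 genes that fell were Mir466i, Mir709, whose call ended under 9 alternatives, and Mir21a, whose call ended under 11.

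Several guanylate-binding proteins rose, and 61.3% of the other interferon-stimulated genes fell, beside 39.6% of all tested genes. Of the guanylate-binding and immunity-related GTPases 4 of 8 tested members rose and 2 fell, with a median of 0.62 (0.86 relative to all genes). Gbp2 had 82.6 and 114 TPM in div0 cells, against 40.9 and 52.3 TPM in naive cells (1.05 ± 0.16) and Gbp5 134 and 144 TPM in div0 cells, against 62.6 and 87.1 TPM in naive cells (0.90 ± 0.16), both beside Gbp2b, while Mx1, an antiviral GTPase, fell, with 17.6 and 18.02 TPM in div0 cells, against 36.3 and 56.5 TPM in naive cells (-1.300 ± 0.27). Of the other interferon-stimulated genes 19 of 31 tested members fell and 1 rose (4 with median-ratio scaling or quantile normalization, 3 without naive replicate 2), with a median of -0.60 (-0.36 relative to all genes). Samhd1, which degrades deoxynucleotides, had 257 and 256 TPM in div0 cells, against 923 and 1047 TPM in naive cells (-1.93 ± 0.18). Ifitm3, a membrane barrier to viruses that was higher in naive replicate 2, had 3.901 and 3.04 TPM in div0 cells, against 62.02 and 189.97 TPM in naive cells. Of the TRIM genes 3 of 11 tested members fell and 0 rose, an order that turned with quantile normalization, to 3 that rose and 1 that fell, with the largest fall in Trim25, a ubiquitin ligase of the RIG-I pathway, with 112 and 114 TPM in div0 cells, against 341 and 285 TPM in naive cells (-1.45 ± 0.19). Gimap3, a GTPase of lymphocyte survival, was the 1 of 3 tested GIMAP genes that fell, with 348 and 289 TPM in div0 cells, against 654 and 897 TPM in naive cells (-1.27 ± 0.18), and without naive replicate 1 all 3 were called lower. Among these calls the highest adjusted p was 0.00401 (Mx1).

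Genes for and against survival were both among those that rose. In the BCL2 family 5 of 14 tested members rose (10 with median-ratio scaling or quantile normalization, 8 without naive replicate 2) and 2 fell, with a median of 0.34 (0.58 relative to all genes). Bcl2a1a, a protective gene with near-identical copies, had 1169 and 1166 TPM in div0 cells, against 356 and 219 TPM in naive cells (2.06 ± 0.19), and Bcl2l1, which encodes BCL-XL, 43.3 and 44.3 TPM in div0 cells, against 10.97 and 14.9 TPM in naive cells (1.699 ± 0.20). Bid, a pro-apoptotic member cut by caspase-8, had 574 and 619.5 TPM in div0 cells, against 109 and 173 TPM in naive cells (2.11 ± 0.19). Bmf, a pro-apoptotic member induced by stress, fell, with 35.7 and 32.2 TPM in div0 cells, against 106 and 82.2 TPM in naive cells (-1.43 ± 0.15). Among caspases, inhibitors of apoptosis and death adaptors 8 of 28 tested members rose (14 with median-ratio scaling, 3 without div0 replicate 1) and 5 fell (1 with median-ratio scaling or quantile normalization, 1 without div0 replicate 2). Casp4, an inflammatory caspase, had 145 and 145 TPM in div0 cells, against 72.7 and 73.3 TPM in naive cells (0.98 ± 0.09), and Htra2, a mitochondrial protease, 155 and 173 TPM in div0 cells, against 105 and 115 TPM in naive cells (0.57 ± 0.12). Casp8 stood at 167 and 159.97 TPM in div0 cells, against 238 and 228 TPM in naive cells (-0.51 ± 0.07), while its most abundant transcript alone gave a log2 change of 0.025. Of the p53 target genes 5 of 16 tested members rose and 7 fell, an order that turned with median-ratio scaling, to 8 that rose and 4 that fell and with quantile normalization, to 7 that rose and 4 that fell. Psrc1, a spindle gene, rose, with 22.2 and 35.9 TPM in div0 cells, against 4.94 and 6.1999 TPM in naive cells (2.16 ± 0.23), while Plk2, an early response kinase, was at 2.32 and 2.15 TPM in div0 cells, against 892 and 98.7 TPM in naive cells. The largest adjusted p here was 0.00487 (Htra2).

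Genes of the actin list fell and rose in shares of 39.3% and 14.3%, near the 39.6% and 15.4% of all tested genes. In the actin list 22 of 56 tested members fell (13 without div0 replicate 1 or 2) and 8 rose (16 with median-ratio scaling, 5 without div0 replicate 1 or 2). Fscn1, fascin, which bundles actin in cell protrusions, had 35.2 and 48.9 TPM in div0 cells, against 6.02 and 5.96 TPM in naive cells (2.604 ± 0.37), Myo1h, a class I myosin, 12.3 and 13.99 TPM in div0 cells, against 1.01 and 2.63 TPM in naive cells (2.38 ± 0.27), and Pfn2, a profilin, 20.1 and 23.3 TPM in div0 cells, against 4.79 and 4.09 TPM in naive cells (2.06 ± 0.13). Vim, the intermediate filament vimentin, fell, with 328 and 363 TPM in div0 cells, against 805 and 841 TPM in naive cells (-1.25 ± 0.11). As a check on abundant common genes, Actb was not called, with 12355 and 12485 TPM in div0 cells, against 9154 and 10572 TPM in naive cells (0.34 ± 0.14, adjusted p = 0.0632), nor was B2m, with 7537 and 7899 TPM in div0 cells and 8406 and 7918 TPM in naive cells. Gapdh, a glycolysis gene often used as a standard, was called, with 4264 and 5054 TPM in div0 cells, against 2218 and 2203 TPM in naive cells (1.07 ± 0.11). Adjusted p-values of the genes named were at most 6.83e-04 (Fscn1).

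Set against divided cells of the same cultures, the undivided cells differed far less. By the same rule 388 genes were called between div0 and div12 cells (8.76%), 225 higher (5.08%) and 163 lower (3.68%) in div0, and 49 by at least 2-fold. These calls rested on single libraries: 0 were made without div0 replicate 1, div0 replicate 2 or div12 replicate 2, with limma and Benjamini-Hochberg adjustment, although 683, 831 and 798 genes then had an unadjusted p under 0.05, and 125 were called without div12 replicate 1. The comparison shares the div0 libraries with that against naive cells, so the values are given side by side with no overlap count. The naming rule took genes called in both comparisons in the same direction, with no overlap of div0 with either other group. Of these, the 6 with the largest difference from div12 in each direction are given. Trpm5, a calcium-activated cation channel, had 25.01 and 28.9 TPM in div0 cells, against 8.11 and 9.44 TPM in div12 cells and 4.48 and 4.57 TPM in naive cells, and its log2 difference from div12 was 1.52 ± 0.22 (adjusted p = 0.0151). Lipc, hepatic lipase, had 30.5 and 39.9 TPM in div0 cells, against 18.9 and 18.2 TPM in div12 cells and 13.4 and 10.9 TPM in naive cells. Rara had 264 and 248 TPM in div0 cells, against 184 and 156 TPM in div12 cells and 152 and 173 TPM in naive cells, and Relb 264 and 265 TPM in div0 cells, against 192 and 161 TPM in div12 cells and 183 and 196 TPM in naive cells. Prmt2, an arginine methyltransferase, had 32.99 and 33.4 TPM in div0 cells, against 21.3 and 24.1 TPM in div12 cells and 22.5 and 27.3 TPM in naive cells, and Dnase2a, a lysosomal nuclease, 202 and 192 TPM in div0 cells, against 151 and 153 TPM in div12 cells and 159.7 and 172 TPM in naive cells.

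Several of the 6 genes lowest in div0 cells encode membrane proteins. Ccl3, given above, had 5.36 and 3.795 TPM in div0 cells, against 17.9 and 17.2 TPM in div12 cells and 68.7 and 55.2 TPM in naive cells. Cdh17, a cadherin of B cells and gut, had 5.39 and 5.31 TPM in div0 cells, against 9.34 and 11.1 TPM in div12 cells and 21.3 and 24.5 TPM in naive cells (log2 difference from div12 -0.82 ± 0.18, adjusted p = 0.0361). Entpd1, the ectonucleotidase CD39, had 14.9 and 15.4 TPM in div0 cells, against 23.3 and 24.9 TPM in div12 cells and 30.2 and 38.9 TPM in naive cells. Kcnn4, a calcium-activated potassium channel of lymphocytes, had 21.5 and 22.7 TPM in div0 cells, against 38.2 and 36.8 TPM in div12 cells and 35.5 and 46.3 TPM in naive cells. Tmem132a, a membrane protein gene, had 4.89 and 5.95 TPM in div0 cells, against 11.7 and 8.497 TPM in div12 cells and 10.95 and 10.05 TPM in naive cells. Tmem86b, which encodes a lysoplasmalogenase, had 22.3 and 24.6 TPM in div0 cells, against 38.2 and 34.8 TPM in div12 cells and 36.5 and 38.1 TPM in naive cells. These genes were chosen so that both div0 libraries lay below both libraries of each other group. In the general run of genes the div0 level lay nearer to div12, with a median absolute log2 difference of 0.22 from div12 cells and 0.44 from naive cells.

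**Figure D5:**
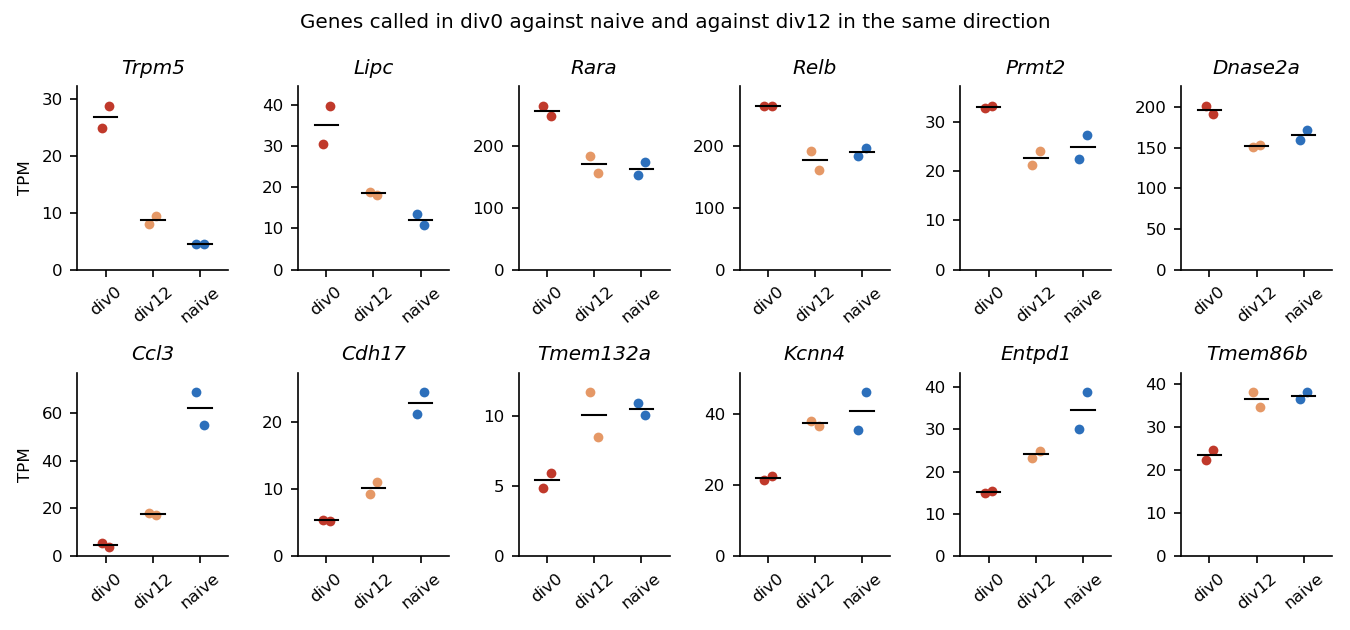
TPM of the 12 genes that were called in div0 against naive and in div0 against div12 in the same direction and led by the size of the div12 difference, with 1 point per library and a bar at the group mean. By the choice of genes, the div0 libraries lie above both other groups in the upper row and below them in the lower row.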

How the data were processed

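RNA from splenic B cells was sequenced after ribosomal RNA depletion as 50 bp single-end reads, per the labels' protocols. The deposited table gives TPM per RefSeq transcript in 10 libraries, as made by the authors. The submitters' processing notes name the mm10 build and list HISAT2, Salmon, featureCounts and HTSeq among the tools, and which of them made the TPM is not given in the sources used here. TPM keeps no depth, so no count model, interval or detection limit could be given. Of 13128 transcripts, 63 without a symbol were left out and 13065 were summed into 6610 symbols, among them 6320 of the 21896 protein-coding genes annotated, and other genes were not analysed here. The 4427 genes that reached 1 TPM in 2 or more libraries were tested as log2(TPM + 1) with limma 3.58.1 in R 4.3.3, one model over all 10 libraries with group as the only factor, 5 residual degrees of freedom and a mean-variance trend, with Benjamini-Hochberg adjustment and a threshold of 0.05, two-sided. The script was tested on simulated data.

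The members and gene lists were chosen with earlier results of these data known. Genes named in the text are the 15 that rose most and the 15 that fell most outside the cell-cycle, histone, unnamed or small RNA, immediate early and other-cell lists, up to 3 called members in each direction of each list, 6 genes in each direction against div12, the 10 most abundant of each group, and Gapdh, Actb and B2m, with a minimum of 10 TPM in the higher group for the first 3 sets. The 15 that rose and the 15 that fell were limited to genes whose div0 and naive libraries do not overlap. The 6 in each direction against div12 had to be called in both comparisons in the same direction. Their div0 libraries had to overlap with neither other group. Tuba1b, Ccl1, Cx3cl1, Cd3e and the microRNA genes were named after their values were seen. Alternatives were pseudocounts of 0.1 and 5, no filter, a filter at 5 TPM, both scalings, the 4 libraries alone, a replicate block, no trend, the most abundant transcript, the removal of other-cell and immediate early genes, and leaving out each library. A gene that missed the filter under an alternative was not tested there, and its call is counted as held. The labels give independent pools, and replicate numbers were not used as pairs.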

Additional observations from a re-analysis of the deposited data

How the results depend on the processing

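The number of genes called between div0 and naive was 2431, and 856 of these changed by at least 2-fold. Without 1 library at a time the count lay between 1573, without div0 replicate 2, and 2090, without naive replicate 1, the calls higher in div0 between 429 and 750, and the calls lower between 1144 and 1527. The split by direction depended on the scaling, with 1130 higher and 1165 lower after median-ratio scaling and 1272 higher and 1020 lower after quantile normalization. With a pseudocount of 5 the calls of at least 2-fold numbered 562, against 856 with a pseudocount of 1, since a larger pseudocount shrinks the log2 change of low genes. Of the 2431 genes called, 586 were not called with median-ratio scaling, 756 with quantile normalization, 519 in the fit of the 4 libraries alone, 369 with the most abundant transcript, and 867 without div0 replicate 2. The share of TPM to reassign moved by less than 1 SD of its values over pairs of libraries under each alternative run for it.

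Replicate numbers were used by div0, naive and div12 alike. Deviations from the group means correlated at 0.13 between same-numbered div0 and naive libraries and at -0.24 between div0 and div12, over 2 pairs each, which does not show that the numbers pair the libraries. With a replicate block 117 of the 2431 calls against naive were not made. The count between div0 and div12 was 388. It was 247 with the replicate block, 332 with the div12 numbers crossed (chosen after seeing that correlation), 162 with no filter, 236 in the fit of those groups alone, 183 with no trend, 223 with the most abundant transcript, 49 at 2-fold or more, and between 0 and 125 without 1 library. The cause of these differences was not tested.

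Of 377 named genes 370 were called, and 271 of those kept their call under every alternative that tested them. Over 5591 repeats of these genes, 5252 kept direction and side of the threshold, 330 lost the call, 8 gained one and 1 turned: the log2 change of Casp8 was 0.025 with its most abundant transcript. Depth is unknown, so what it limits cannot be given.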

Other observations

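Transcript use was compared within genes that have 2 or more transcripts in the table and at least 10 TPM in each of the 4 libraries, 1542 genes in all. The most abundant transcript differed between div0 and naive cells in both replicates for 46 of them. Between the div0 libraries it differed for 130 genes and between the naive libraries for 205. These counts cannot be set against the 46, which had to differ in both replicates, and so no statement on the spread between replicates rests on them. In 7 of the 46 the share of the switched transcript differed by at least 25 percentage points: Srsf3, BC055324, Ahcyl2, Dpcd, Net1, E2f3 and Hes6, chosen after their values were seen. In Hes6, a helix-loop-helix gene, the transcript that led in div0 cells held 81.2% and 88.8% of the gene's TPM in div0 cells, against 42.05% and 43.2% in naive cells. Reads of 50 bases from one end assign transcripts with error, and no test was run.

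The 63 transcripts without a gene symbol summed to 2271 and 2159 TPM in div0 cells, against 3793 and 3403 TPM in naive cells, and were not analysed further.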
